A study of Mus musculus with 8 samples.

Results

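The cerebellum library was compared with the cortex and hippocampus libraries, 3 of the 8 mouse RNA-seq libraries of the series. Each was made from total RNA of a brain region of strain C57, with 1 library per region and no treatment named. The sources used here give neither the animals' age and sex nor how many gave each library or how the regions were dissected. The neuron and glia libraries, also brain of strain C57, are used below for levels only. A gene was counted as different where cerebellum lay outside both forebrain libraries. The difference had to reach 4-fold from the nearer forebrain library on TPM (transcript abundance scaled by length and library total) with 1 added, and the side that was higher had to stand at 10 TPM or more in each of its libraries. Since each region is 1 library, differences have no check against replicates and nothing was tested. Folds below are ratios of TPM to the nearer forebrain library, and the range in parentheses is the exact (Clopper-Pearson) 95% interval, which covers counting error only.

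The cerebellum is built from very many small granule cells, the Purkinje neurons that carry the output of its cortex, inhibitory interneurons, and a radial astrocyte called the Bergmann glial cell that lies beside the Purkinje neurons. Purkinje neurons read a part of their climbing and parallel fibre input through metabotropic glutamate receptors, phospholipase C, inositol trisphosphate and calcium release. Cortical and hippocampal pyramidal neurons rely more on NMDA receptors and calcium/calmodulin kinase II in their spines. The neurons of both territories come from different parts of the neural tube, which are set apart early by homeobox, forkhead and zinc finger transcription factors.

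Total expected counts were 5572116 in cerebellum, 5369399 in cortex and 3686772 in hippocampus, and for a length of 2000 bases 3 counts came to 0.625, 0.656 and 0.943 TPM. Of 11728 genes with 10 TPM or more in at least 1 of the 3 libraries, 264 (2.25%) were higher in cerebellum and 353 (3.01%) lower, 617 (5.26%) in all. Without a size limit, cerebellum lay above both forebrain libraries at 5804 genes (49.5%) and below both at 4065 (34.7%). Both shares depended on how the libraries were scaled, as described below with the other settings. The forebrain libraries lay closer to each other: the median absolute log2 difference was 0.21 between cortex and hippocampus, 0.44 between cerebellum and cortex and 0.43 between cerebellum and hippocampus. Taken pair by pair under the same limits, cerebellum was above cortex at 341 genes (2.96%), below it at 564 (4.89%), above hippocampus at 376 (3.30%) and below it at 497 (4.36%). Cortex was above hippocampus at 92 genes (0.832%) and below it at 50 (0.452%). Just inside the limits lay Pde9a at a log2 ratio of 2.001 and Necab1 at -2.002. Just outside lay Gli1 at 1.99, Cacna1g at 1.97, Kcnc1 at 1.97 and Kcns2 at -1.95.

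**Figure D1:**
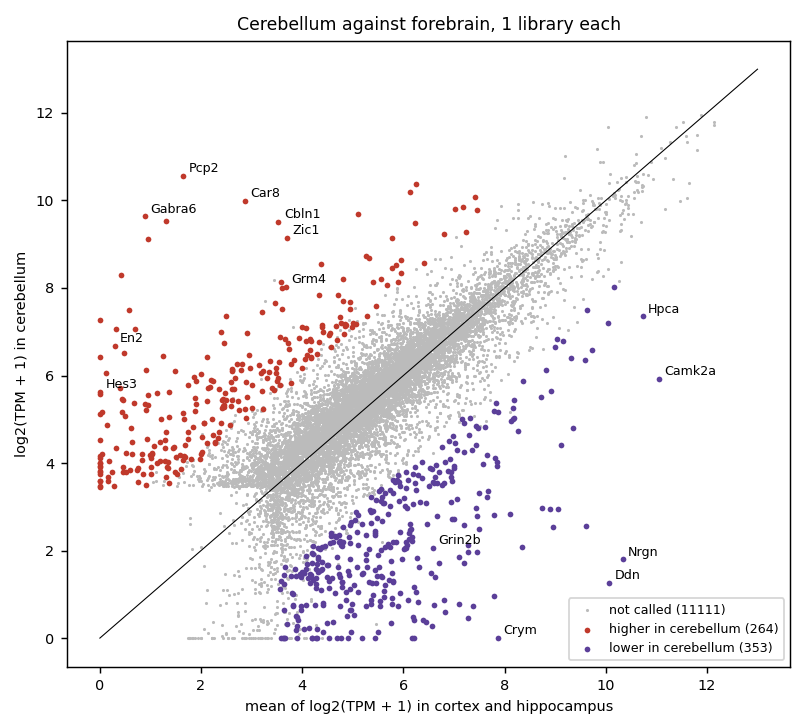
Each point is 1 of 11728 genes, with its log2(TPM + 1) in cerebellum on the y axis and the mean of its log2(TPM + 1) in cortex and hippocampus on the x axis; the line marks equal levels. The 264 genes that were higher in cerebellum are red, the 353 that were lower are purple and all others are grey.

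Marker genes were set beside the labels. Their lists were chosen with earlier results of these data known, so they are no independent check of the labels. Of 14 granule neuron genes 12 were higher in cerebellum and of 12 Purkinje neuron genes 10. Of 14 forebrain projection neuron genes 10 were lower and of 12 forebrain interneuron genes 6. Among all 11728 genes, 2.25% were higher and 3.01% lower. Of the 3 libraries, cortex had the highest sums of striatal and choroid plexus marker genes. The 11 striatal genes summed to 634 TPM in cerebellum against 2853 in cortex and 205 in hippocampus, and the 12 choroid plexus genes to 78.8 TPM in cerebellum against 1269.6 in cortex and 89.2 in hippocampus, most of it Ttr (transthyretin) at 34.96, 1183 and 63.1. A gene high in the cortex library alone does not count as lower in cerebellum, and 1 of the 11 striatal genes, Tac1, did. Without a size limit, 7 of the 11 lay below both forebrain libraries, beside 34.7% of all genes. Whether RNA of neighbouring striatum or choroid plexus gave these sums, or a part of other cortex values, was not tested. In bulk tissue, fewer cells of a type and less RNA per cell cannot be told apart.

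The genes with the largest ratios in each direction came from different functional classes. Higher in cerebellum beside the known Purkinje and granule genes (Pcp2, Gabra6, Cbln3, Ppp1r17, Cnpy1, Crtam, Car8, Fat2 and Cbln1) were En2 and Hes3, both transcription factors. Dao, which encodes D-amino acid oxidase, the enzyme that breaks down D-serine, stood at 91.1 TPM in cerebellum against 0.32 in cortex and 0.47 in hippocampus, a ratio of 194-fold (34.6 to 7699). Arhgef33, a guanine nucleotide exchange factor gene, stood at 132 TPM in cerebellum against 1.13 in cortex and 0.22 in hippocampus, a ratio of 117-fold (58.99 to 271). Zfp385c, a zinc finger gene, stood at 65.8 TPM in cerebellum against 0.17 in cortex and 0 in hippocampus, a ratio of 387-fold (69.7 to 15511). Iltifb stood at 84.6 TPM in cerebellum against 0 in cortex and 0 in hippocampus, but it has a near-identical copy, Il22, with which its reads may be shared, so the value is uncertain. Lower in cerebellum were genes of several kinds. Icam5, the telencephalic adhesion molecule telencephalin, stood at 0.95 TPM in cerebellum against 206 in cortex and 238 in hippocampus, a ratio of 216-fold (106 to 632). Gda, the guanine deaminase gene, stood at 0.38 TPM in cerebellum against 200.1 in cortex and 120.1 in hippocampus, a ratio of 316-fold (107 to 1518). Cpne7, a calcium-dependent membrane-binding copine, stood at 0.65 TPM in cerebellum against 104 in cortex and 264 in hippocampus, a ratio of 159.7-fold (54.7 to 781). Myo5b, a myosin that carries recycling endosomes, stood at 0.72 TPM in cerebellum against 107 in cortex and 175 in hippocampus, a ratio of 148-fold (67.5 to 406). A part of this ratio comes from the gene length used for TPM, which was 3462 bases in cerebellum (6 counts) and 1653 in cortex (404 counts). The interval takes these lengths as fixed. Enc1, an actin-binding Kelch protein gene, stood at 6.74 TPM in cerebellum against 421 in cortex and 531 in hippocampus, a ratio of 62.5-fold (49.7 to 79.7), and Ctxn1, which encodes cortexin, at 6.72 TPM in cerebellum against 639 in cortex and 442 in hippocampus, a ratio of 65.8-fold (40.8 to 114). In each of these the forebrain libraries lay nearer to each other than to cerebellum. Rtn4rl2, a Nogo receptor homologue, had 0 counts in cerebellum against 0, 74.96 and 67.6 TPM in the order cerebellum, cortex, hippocampus, which puts it at least 46.9-fold lower. Other genes of this order (Nrgn, Ddn, Crym, Sst, Camkv, Chrm1 and Rgs14) are neuronal genes of forebrain or come up below.

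One promoter from each end of the order is shown, the first in each whose RefSeq start lay within 100 bases of the GENCODE start and whose window held no annotated exon. Each is the 250 bases before the RefSeq start (GRCm38), 5′ to 3′ on the gene's strand. Gabra6, higher in cerebellum, has its window at chr11:42321073-42321322 on the minus strand with 40.8% G and C, and Icam5, lower, at chr9:21031788-21032037 on the plus strand with 61.6%. Capitals mark TGCCAA, the reverse complement of TTGGCA, the half-site of nuclear factor I, whose family of factors is known for its part in granule neuron maturation. It covers bases -50 to -45 of Gabra6, counted back from the start.
Gabra6: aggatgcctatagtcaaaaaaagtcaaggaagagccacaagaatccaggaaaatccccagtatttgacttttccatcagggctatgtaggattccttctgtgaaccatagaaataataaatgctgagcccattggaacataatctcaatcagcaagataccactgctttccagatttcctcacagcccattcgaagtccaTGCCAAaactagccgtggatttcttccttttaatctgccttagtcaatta
Icam5: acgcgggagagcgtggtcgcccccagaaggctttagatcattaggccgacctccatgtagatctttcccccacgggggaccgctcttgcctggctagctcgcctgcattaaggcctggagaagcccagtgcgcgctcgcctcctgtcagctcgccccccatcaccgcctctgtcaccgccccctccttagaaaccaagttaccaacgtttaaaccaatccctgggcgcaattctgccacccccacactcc
Several motifs were searched on both strands in these windows for every gene that had one, which was 185 of the 264 higher genes, 249 of the 353 lower genes and 9094 of the 11728. TTGGCA stood in 12.4% of the windows of higher genes, 10.8% of lower genes and 9.83% of the 9094. AGGTCA, the half-site of ROR and other nuclear receptors, stood in 14.6%, 8.43% and 9.60%. CAGCTG, a form of the E-box of basic helix-loop-helix factors, stood in 10.8%, 18.9% and 11.2%. The cyclic AMP response element TGACGTCA stood in 1.62%, 2.81% and 2.88%, and contains no other motif of the search. Icam5 held none of them. These shares describe letters in a window and were not tested.

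Transcription factor genes split in both directions. Of 343 measured, immediate early genes included, 169 reached 10 TPM in at least 1 of the 3 libraries, and of these 21 (12.4%) were higher in cerebellum and 26 (15.4%) lower, beside 2.25% and 3.01% of all genes. Without a size limit, 66 lay above both forebrain libraries and 85 below both, beside 49.5% and 34.7% of all genes. The median log2 difference between cerebellum and the mean of the forebrain libraries was -0.20 over them and 0.11 over all 11728 genes. The homeobox list held 9 higher and 6 lower of 24, the Zic, Gli and Glis list 5 higher and 0 lower of 7, and the T-box, Satb, Cux, Lmo and Fezf list 1 higher and 7 lower of 14. No member of the Sox list was counted in either direction (0 of 12), and 10 of the 12 lay below both forebrain libraries. All 39 Hox genes stayed under 10 TPM, and their sums were 2.74 TPM in cerebellum against 0.43 in cortex and 0 in hippocampus.

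En2, an engrailed homeobox factor of the midbrain-hindbrain boundary (chromosome 5, 28165694 to 28172166, GRCm38), stood at 101 TPM in cerebellum against 0.26 in cortex and 0.19 in hippocampus, from 820, 2 and 1 counts, a ratio of 389.9-fold (108 to 3234). Hes3, a Hairy-related repressor of the same boundary (chromosome 4, 152285972 to 152291662), had 192 counts in cerebellum and 0 in both forebrain libraries, so it was at least 42.1-fold higher. The forebrain libraries thus held 0 to 2 counts of either gene. The LIM homeobox factors of the Purkinje lineage followed the same pattern. Lhx1 stood at 51.3 TPM in cerebellum against 0.73 in cortex and 0 in hippocampus, a ratio of 70.3-fold (12.6 to 2789), and Lhx5 at 19.2 TPM in cerebellum against 0.54 in cortex and 0 in hippocampus, a ratio of 35.6-fold (11.99 to 177). Barhl1, a factor of granule cell precursors, stood at 10 TPM in cerebellum against 0 in cortex and 0 in hippocampus (at least 10.9-fold higher), and its paralogue Barhl2 at 34.97 TPM in cerebellum against 0.81 in cortex and 0 in hippocampus, a ratio of 43.2-fold (16.5 to 159). Irx3, an Iroquois homeobox factor, stood at 10.1 TPM in cerebellum against 0.18 in cortex and 0.26 in hippocampus, with 1 count in each forebrain library and a ratio of 38.96-fold (6.71 to 1561).

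The zinc finger factors of the Zic family, known in the granule lineage, were higher in cerebellum. Zic1 stood at 566 TPM in cerebellum against 9.17 in cortex and 15.7 in hippocampus and Zic4 at 52.1 TPM in cerebellum against 3.74 in cortex and 3.32 in hippocampus, ratios of 35.98-fold (29.2 to 44.9) and 13.9-fold (8.56 to 24.3). Their annotated exons overlap, so a part of the Zic4 reads may belong to Zic1. Zic2 stood at 202 TPM in cerebellum against 11.4 in cortex and 8.85 in hippocampus, a ratio of 17.7-fold (13.4 to 23.9), and Zic5 at 42.04 TPM in cerebellum against 3.07 in cortex and 3.57 in hippocampus, a ratio of 11.8-fold (7.94 to 18.2). Pax6, the paired-box factor of the rhombic lip that cortical progenitors use too, stood at 116 TPM in cerebellum against 11.3 in cortex and 10.2 in hippocampus, a ratio of 10.3-fold (7.82 to 13.8). Neurod1, a basic helix-loop-helix factor of granule neurons, stood at 372 TPM in cerebellum against 13.7 in cortex and 27.9 in hippocampus, a ratio of 13.3-fold (11.04 to 16.3). Its paralogue Neurod2 lay at 113, 44.5 and 110.1 TPM in the same order of libraries, level with hippocampus.

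Further factors were higher in cerebellum. Rora, the nuclear receptor mutated in the staggerer mouse, stood at 109.9 TPM in cerebellum against 20.5 in cortex and 13.99 in hippocampus, a ratio of 5.37-fold (4.85 to 5.95). Ebf1, an early B-cell factor family member, stood at 31.3 TPM in cerebellum against 3.23 in cortex and 1.36 in hippocampus, a ratio of 9.69-fold (6.74 to 14.4). Tfap2b, an AP-2 factor of inhibitory progenitors that comes from a marker list and is not in the counts of transcription factor genes, stood at 26.7 TPM in cerebellum against 0.61 in cortex and 0.44 in hippocampus, a ratio of 43.8-fold (21.8 to 101). Eomes, the T-box factor of unipolar brush cells, stood at 39.1 TPM in cerebellum against 0.64 in cortex and 1.3 in hippocampus, a ratio of 30.1-fold (12.8 to 93.5). Meis1, a homeobox factor of granule neurons, stood at 35.7 TPM in cerebellum against 6.9 in cortex and 0.71 in hippocampus and Otx2 at 24.04 TPM in cerebellum against 4.58 in cortex and 2.95 in hippocampus, ratios of 5.17-fold (3.8 to 7.3) and 5.25-fold (2.99 to 9.94). Otx2 is also a choroid plexus gene, the 1 of the 6 such genes at 10 TPM that was higher in cerebellum. Its annotated exons overlap those of Otx2os1. Atoh7, with only 11, 2 and 0 counts, was higher too.

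Telencephalic factors were lower in cerebellum, several of them near 0. Lhx2, a LIM homeobox factor of the cortical primordium (chromosome 2, 38339281 to 38369733), stood at 0.27 TPM in cerebellum against 49.3 in cortex and 57.5 in hippocampus, a ratio of 182-fold (32.1 to 7154). Lmo3 stood at 2.92 TPM in cerebellum against 215 in cortex and 141 in hippocampus, a ratio of 48.2-fold (29.02 to 86.9), and Lmo4 at 40.5 TPM in cerebellum against 239 in cortex and 217 in hippocampus, a ratio of 5.35-fold (4.39 to 6.55); both are LIM-only cofactors. The 2 genes differ in that Lmo4 stayed above 10 TPM in cerebellum. Bcl11b, the subcerebral projection neuron factor also called Ctip2, stood at 0.71 TPM in cerebellum against 51.7 in cortex and 55.3 in hippocampus, a ratio of 72.8-fold (36.7 to 169). Its paralogue Bcl11a stood at 12.4 TPM in cerebellum against 59.6 in cortex and 87.2 in hippocampus, a ratio of 4.79-fold (3.75 to 6.19). Fezf2, Emx1, Dlx1 and Nr2e1 had 0 counts in cerebellum. Their levels in the order cerebellum, cortex, hippocampus were 0, 19.6 and 34.7 TPM for Fezf2, 0, 19.7 and 17.4 TPM for Emx1, 0, 37.6 and 33.1 TPM for Dlx1 and 0, 12.3 and 10.8 TPM for Nr2e1. Against the floor of 3 counts they were at least 33.5-fold, at least 17.2-fold, at least 47.4-fold and at least 9.68-fold lower. Dlx1 is an interneuron factor, and Nr2e1 is the neural stem cell receptor Tlx.

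Mef2c, which regulates activity-dependent genes in cortical excitatory neurons, stood at 14.3 TPM in cerebellum against 228 in cortex and 70.5 in hippocampus, a ratio of 4.92-fold (4.2 to 5.79). Meis2, the paralogue of Meis1, went the other way from it at 5.06 TPM in cerebellum against 154 in cortex and 49.7 in hippocampus, a ratio of 9.82-fold (6.48 to 15.5). Tbr1, Emx2, Lhx6, Ldb2, Lmo7, Foxo6, Hes5 and Pou3f1 were lower as well. Pou3f1, at 0.68, 10.1 and 40.3 TPM, was highest in hippocampus, and Tbr1, at 0.66, 57.7 and 23.7 TPM, highest in cortex.

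Immediate early genes are switched on in neurons with activity. Of 18 measured, 0 were higher and 5 lower, beside 2.25% and 3.01% of all genes. Without a size limit, 12 lay below both forebrain libraries and 4 above both, beside 34.7% and 49.5% of all genes. Egr3 stood at 0.33 TPM in cerebellum against 83.3 in cortex and 64.8 in hippocampus, a ratio of 196-fold (34.2 to 7712). Arc, the synaptic capsid-like protein gene, stood at 14.2 TPM in cerebellum against 236 in cortex and 225 in hippocampus, a ratio of 15.9-fold (12.9 to 19.8), Junb at 18.7 TPM in cerebellum against 151 in cortex and 115 in hippocampus, a ratio of 6.13-fold (4.74 to 7.999), Egr2 at 0.17 TPM in cerebellum against 18.8 in cortex and 14.6 in hippocampus and Egr4 at 12.3 TPM in cerebellum against 65.4 in cortex and 52.8 in hippocampus. Fos did not go with them, at 159 TPM in cerebellum against 88.3 in cortex and 54.8 in hippocampus, which puts cerebellum above both. Egr1 lay at 32.5, 226 and 124 TPM and Npas4 at 12.9, 33.04 and 18.1, both below the forebrain libraries without reaching 4-fold. The sources used here do not say how the animals were handled before the tissue was taken.

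**Figure D2:**
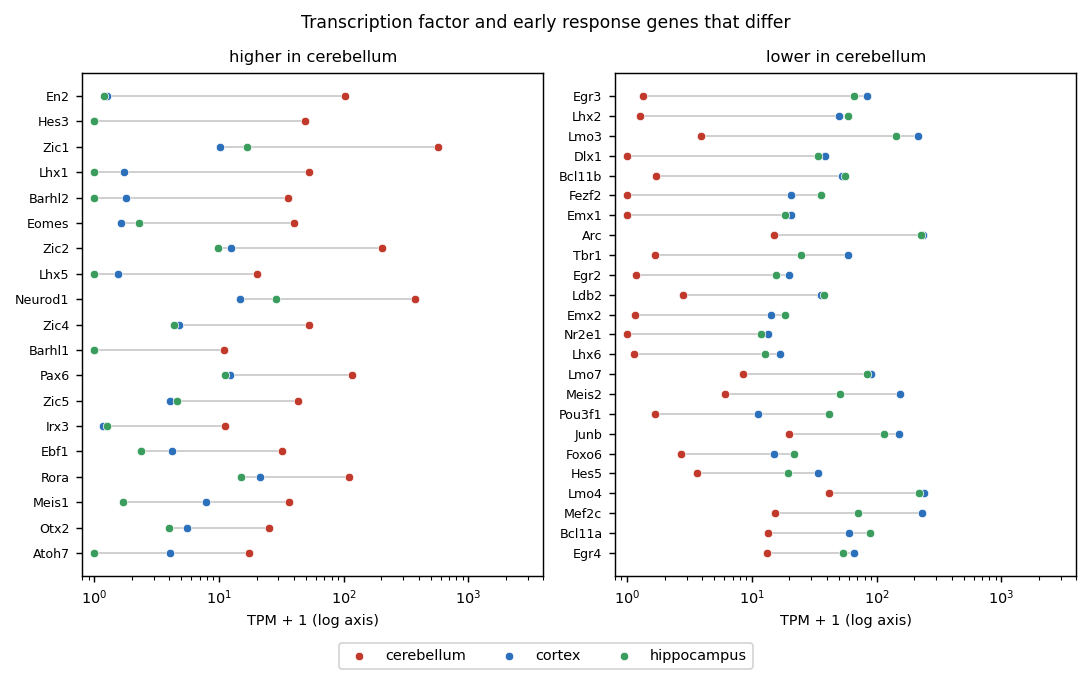
Levels of the transcription factor and early response genes that differed, as TPM + 1 on a log axis, 1 row per gene and 1 point per library, with genes higher in cerebellum on the left and genes lower on the right. The red points (cerebellum) stand alone on 1 side of each row because the genes were chosen that way. The cortex and hippocampus points lie close together in most rows.

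At the 4-fold limit, more ion channel genes were lower in cerebellum than higher. Of 188 measured, 124 reached 10 TPM, of which 6 (4.84%) were higher and 20 (16.1%) lower, beside 2.25% and 3.01% of all genes. Without a size limit, 49 lay above both forebrain libraries and 52 below both, beside 49.5% and 34.7% of all genes. Their median log2 difference was -0.03. Potassium channel subunits made up most of them, with 4 higher and 13 lower of 59. Sodium channel subunits had 0 higher and 2 lower of 13, calcium channel subunits 0 higher and 4 lower of 21, and the HCN, TRP and chloride channels 2 higher and 1 lower of 31.

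Of the fast-gating Kv3 subunits, Kcnc1 lay above the forebrain libraries at 404 TPM in cerebellum against 103 in cortex and 92.5 in hippocampus without reaching the limit. Kcnc2, a subunit of forebrain fast-spiking interneurons, stood at 1.66 TPM in cerebellum against 39.1 in cortex and 48.1 in hippocampus, a ratio of 23.5-fold (15.7 to 37.1) in the other direction. Within the 4 Kv3 genes, Kcnc2 made up 0.205% in cerebellum (0.131 to 0.305), 16.1% in cortex (14.9 to 17.5) and 18.04% in hippocampus (16.5 to 19.7) of their TPM. Such shares, here and below, were taken within families that were chosen after values had been seen, and are given as a description. Kcng4, a silent subunit that modifies Kv2 channels, stood at 126 TPM in cerebellum against 2.4 in cortex and 7.12 in hippocampus, a ratio of 17.7-fold (12.96 to 24.8). Kcng1, a silent subunit of the same family, went the other way at 0.11 TPM in cerebellum against 35.7 in cortex and 25.8 in hippocampus, a ratio of 234-fold (42.9 to 9634), and so did Kcnf1 at 0.9 TPM in cerebellum against 83.9 in cortex and 33.9 in hippocampus and Kcnv1 at 0.1 TPM in cerebellum against 65.3 in cortex and 29.8 in hippocampus, also silent subunits.

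Inward rectifier genes also differed in both directions. Kcnj12 (Kir2.2) stood at 79.3 TPM in cerebellum against 11.5 in cortex and 7.46 in hippocampus, a ratio of 6.88-fold (5.2 to 9.28), whereas Kcnj4 (Kir2.3) stood at 0.21 TPM in cerebellum against 150.04 in cortex and 58.9 in hippocampus, a ratio of 280.5-fold (49.6 to 11105). Kcnk3, the acid-sensitive leak channel TASK-1, stood at 65.7 TPM in cerebellum against 13.3 in cortex and 7.8 in hippocampus, a ratio of 4.93-fold (4.02 to 6.1). Kcnip2, an auxiliary subunit of Kv4 channels, stood at 5.95 TPM in cerebellum against 174 in cortex and 176 in hippocampus, a ratio of 29.2-fold (19.2 to 46.9), while the pore subunit Kcnd2 lay at 143 TPM in cerebellum against 65.5 in cortex and 72.3 in hippocampus. Of the M-current genes, Kcnq5 stood at 0.72 TPM in cerebellum against 36.8 in cortex and 43.4 in hippocampus, a ratio of 51.1-fold (28.5 to 103), and Kcnq3 at 10.2 TPM in cerebellum against 61.4 in cortex and 59.3 in hippocampus, a ratio of 5.82-fold (5.09 to 6.67). Kcnh3, Kcnh7, Kcna4 and Kcnt2 were lower too, with log2 ratios of -4.04, -2.08, -2.56 and -3.95.

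Trpc4, a cation channel of the canonical TRP family, stood at 1.26 TPM in cerebellum against 16.7 in cortex and 41.9 in hippocampus, a ratio of 13.2-fold (6.95 to 28.2) lower. Clcn1, the chloride channel best known from muscle, stood at 17.2 TPM in cerebellum against 1.47 in cortex and 2.63 in hippocampus, a ratio of 6.54-fold (3.39 to 16.5), with expected counts that were not whole and exons that overlap Fam131b. Scn3b, a sodium channel beta subunit, stood at 2.27 TPM in cerebellum against 118 in cortex and 178 in hippocampus, a ratio of 52.1-fold (33.9 to 84.6), and the pore subunit Scn3a at 1.42 TPM in cerebellum against 25.97 in cortex and 27.4 in hippocampus, a ratio of 18.3-fold (12.5 to 28.3). Among T-type calcium channels, Cacna1h stood at 1.51 TPM in cerebellum against 41.5 in cortex and 63.7 in hippocampus, a ratio of 27.5-fold (18.9 to 41.5), and Cacna1g at 240.5 TPM in cerebellum against 60.7 in cortex and 55.4 in hippocampus, close to 4-fold above. Cacna1g made up 88.1% in cerebellum (87.2 to 89.04), 42.4% in cortex (39.8 to 44.97) and 39.1% in hippocampus (36.2 to 42.1) of the TPM of the 3 T-type genes. Cacng3 and Cacng8 encode AMPA receptor auxiliary proteins. Cacng3 stood at 3.83 TPM in cerebellum against 96.2 in cortex and 47.5 in hippocampus and Cacng8 at 13.9 TPM in cerebellum against 97.1 in cortex and 166 in hippocampus, ratios of 12.4-fold (8.07 to 19.8) and 7.01-fold (5.13 to 9.76). Cacnb1 stood at 19.6 TPM in cerebellum against 125 in cortex and 93.1 in hippocampus, a ratio of 4.75-fold (3.91 to 5.8).

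Neurotransmitter receptors and synaptic adhesion genes held the largest share of lower genes of these classes. Of 226 measured, 130 reached 10 TPM, of which 9 (6.92%) were higher and 28 (21.5%) lower, beside 2.25% and 3.01% of all genes. Without a size limit, 31 lay above both forebrain libraries and 86 below both, beside 49.5% and 34.7% of all genes. Their median log2 difference was -1.003. The lists differed. Acetylcholine receptors had 0 higher and 4 lower of 6, neuropeptide receptors 1 higher and 7 lower of 14, ephrins and ephrin receptors 1 and 3 of 14, and the serotonin, dopamine, adrenergic and histamine receptors 0 and 2 of 14. The AMPA, kainate, NMDA and delta receptor subunits were 3 higher and 1 lower of 17.

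**Figure D3:**
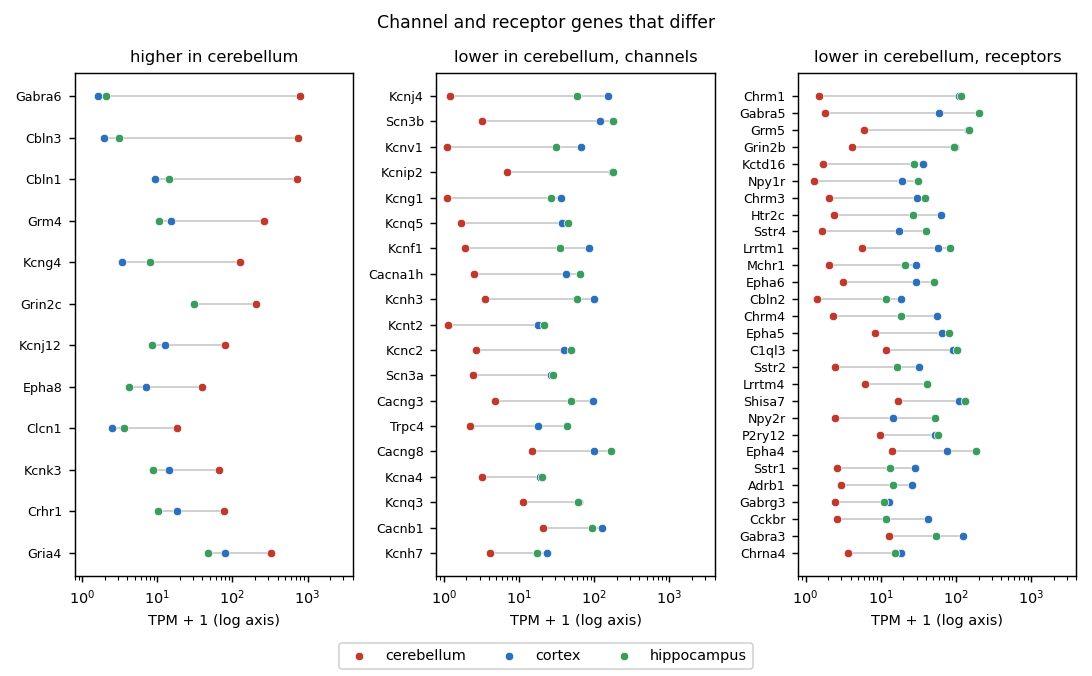
Levels of the channel, receptor and synaptic adhesion genes that differed, as TPM + 1 on a log axis, 1 point per library, with genes higher in cerebellum on the left, lower channel genes in the middle and lower receptor genes on the right. Kcnj4, Chrm1 and Npy1r sit near 0 TPM in cerebellum, while Cacnb1 and Shisa7 keep 15 TPM or more there.

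Glutamate receptor subunits differed within families. Grin2c, the NMDA receptor subunit of mature granule neurons (chromosome 11, 115249169 to 115267243), stood at 203 TPM in cerebellum against 29.98 in cortex and 29.7 in hippocampus, a ratio of 6.76-fold (5.98 to 7.66). Grin2b, the subunit of forebrain synapses (chromosome 6, 135713233 to 136173511), stood at 3.16 TPM in cerebellum against 97.4 in cortex and 92.9 in hippocampus, a ratio of 29.4-fold (25.3 to 34.4). Grin2c made up 87.3% in cerebellum (86.1 to 88.4), 18.1% in cortex (16.4 to 19.9) and 15.8% in hippocampus (13.9 to 17.8) of the TPM of the 4 GluN2 genes. Gria4, an AMPA receptor subunit of granule neurons and Bergmann glia, stood at 324 TPM in cerebellum against 79.8 in cortex and 45.8 in hippocampus, a ratio of 4.06-fold (3.75 to 4.41).

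The metabotropic receptors differed by family member too. Grm4, the presynaptic group III receptor of parallel fibres (chromosome 17, 27422387 to 27521403), stood at 259 TPM in cerebellum against 14.1 in cortex and 9.72 in hippocampus, a ratio of 18.4-fold (15.5 to 21.9), and it made up 91.997% in cerebellum (90.9 to 93.04), 17.6% in cortex (14.9 to 20.6) and 15.8% in hippocampus (12.3 to 19.8) of the TPM of Grm4, Grm7 and Grm8. Grm5, which couples to phospholipase C, was lower at 4.96 TPM in cerebellum against 144 in cortex and 149 in hippocampus, a ratio of 29.03-fold (22.4 to 38.4). Homer3, the scaffold that links group I receptors to inositol trisphosphate receptors in Purkinje spines, stood at 421 TPM in cerebellum against 18.2 in cortex and 75.5 in hippocampus, a ratio of 5.58-fold (4.82 to 6.51). Kctd16, an auxiliary subunit of GABA-B receptors, stood at 0.71 TPM in cerebellum against 35.9 in cortex and 26.4 in hippocampus, a ratio of 37.2-fold (9.81 to 317).

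GABA-A receptor genes differed mainly in their alpha subunits. Gabra6 took 59.95% in cerebellum (58.96 to 60.9), 0.101% in cortex (0.0123 to 0.365) and 0.164% in hippocampus (0.0447 to 0.419) of the TPM of the 6 alpha genes. Gabra5, the extrasynaptic subunit of hippocampal pyramidal neurons, stood at 0.84 TPM in cerebellum against 59.2 in cortex and 203 in hippocampus, a ratio of 70.5-fold (29.98 to 219), and Gabra3 at 11.7 TPM in cerebellum against 123 in cortex and 53.7 in hippocampus, a ratio of 4.59-fold (3.64 to 5.83). Gabrg3 stood at 1.46 TPM in cerebellum against 11.7 in cortex and 10.1 in hippocampus and Shisa7, an auxiliary protein of GABA-A receptors, at 15.9 TPM in cerebellum against 109.5 in cortex and 130.5 in hippocampus, ratios of 6.95-fold (4.22 to 12.2) and 6.87-fold (5.72 to 8.23).

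Muscarinic receptors were low in cerebellum. Chrm1, the Gq-coupled receptor of cortical and hippocampal pyramidal neurons (chromosome 19, 8663789 to 8683587), stood at 0.5 TPM in cerebellum against 108 in cortex and 116 in hippocampus, from 3, 1107 and 858 counts, a ratio of 215-fold (73.9 to 1051). Chrm3, also Gq-coupled, stood at 1.07 TPM in cerebellum against 29.3 in cortex and 38.2 in hippocampus, a ratio of 27.4-fold (11.6 to 85.3). Chrm4, a Gi-coupled receptor, stood at 1.31 TPM in cerebellum against 55.6 in cortex and 17.5 in hippocampus, a ratio of 13.4-fold (4.77 to 51.7); like Tac1 it is also a striatal gene. Chrm2 stayed under 10 TPM in all 3 libraries, at 2.72, 7.22 and 5.15. The nicotinic subunit Chrna4 stood at 2.65 TPM in cerebellum against 17.4 in cortex and 14.6 in hippocampus, a ratio of 5.49-fold (3.53 to 8.75). Htr2c, a serotonin receptor also found in choroid plexus, stood at 1.39 TPM in cerebellum against 63.1 in cortex and 26.1 in hippocampus, a ratio of 18.7-fold (11.05 to 34.1), and Adrb1, the beta-1 adrenergic receptor, at 1.97 TPM in cerebellum against 25.02 in cortex and 13.3 in hippocampus, a ratio of 6.78-fold (3.47 to 14.4).

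Of the neuropeptide receptors, Crhr1, the corticotropin-releasing hormone receptor that serves climbing fibre input, was the 1 that was higher, at 76.4 TPM in cerebellum against 17.4 in cortex and 9.39 in hippocampus, a ratio of 4.4-fold (3.5 to 5.59). Somatostatin receptors were lower. Sstr4 stood at 0.66 TPM in cerebellum against 16.7 in cortex and 39.5 in hippocampus, Sstr2 at 1.48 TPM in cerebellum against 31.2 in cortex and 15.6 in hippocampus and Sstr1 at 1.58 TPM in cerebellum against 27.2 in cortex and 12.2 in hippocampus, ratios of 25.3-fold (6.58 to 213), 10.5-fold (4.74 to 27.7) and 7.71-fold (3.2 to 22.5). The ligand gene Sst, at 4.86, 816 and 738 TPM, was lower with them. The neuropeptide Y receptors Npy1r, at 0.29, 18.2 and 29.9 TPM, and Npy2r, at 1.43, 13.7 and 50.97, had ratios of 62.6-fold (16.7 to 517) and 9.55-fold (3.94 to 30.1). Mchr1, the melanin-concentrating hormone receptor, stood at 1.03 TPM in cerebellum against 28.6 in cortex and 20.1 in hippocampus and Cckbr, the cholecystokinin B receptor, at 1.62 TPM in cerebellum against 41.9 in cortex and 10.7 in hippocampus. The cannabinoid receptor Cnr1, which sits on parallel fibre terminals, lay above both forebrain libraries at 213 TPM in cerebellum against 115 in cortex and 115 in hippocampus without reaching 4-fold.

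Trans-synaptic organisers split by family member. Cbln1 and Cbln3, the cerebellins of granule neurons, made up 49.4% and 50.4% of the TPM of the 4 cerebellin genes in cerebellum, with Cbln1 at 726, 8.4 and 13.2 TPM in the order cerebellum, cortex, hippocampus. Cbln2 went the other way at 0.41 TPM in cerebellum against 17.8 in cortex and 10.6 in hippocampus, a ratio of 25.9-fold (6.62 to 222), and Cbln4 lay at 1.37, 9.27 and 14.3 TPM. C1ql3, a related secreted C1q protein, stood at 10.7 TPM in cerebellum against 90.7 in cortex and 103 in hippocampus, a ratio of 8.44-fold (6.46 to 11.2). The neurexin ligands Lrrtm1 and Lrrtm4 stood at 4.57, 57.2 and 82.4 and at 5.21, 40.5 and 39.9 TPM in that order, ratios of 12.5-fold (8.39 to 19.5) and 7.65-fold (5.33 to 11.2). Among the ephrin receptors, Epha8 stood at 38.4 TPM in cerebellum against 6.06 in cortex and 3.19 in hippocampus, a ratio of 6.34-fold (4.85 to 8.4), and Epha4, Epha5 and Epha6 were lower, with Epha4 at 13.2 TPM in cerebellum against 74 in cortex and 186 in hippocampus, a ratio of 5.61-fold (4.8 to 6.59).

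Second messenger and calcium genes were counted equally often in both directions at the 4-fold limit. Of 306 measured, 232 reached 10 TPM, of which 17 (7.33%) were higher and 17 (7.33%) lower, beside 2.25% and 3.01% of all genes. Without a size limit, 86 lay above both forebrain libraries and 115 below both, beside 49.5% and 34.7% of all genes. Their median log2 difference was -0.20. The calcium store and pump list had 3 higher and 0 lower of 23, and the phosphodiesterase list 3 higher and 1 lower of 16. The list of calmodulin-regulated kinases, phosphatases and calmodulin-binding genes had 0 higher and 4 lower of 30. Calcium buffers and sensors had 4 in each direction of 23.

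Plcb4, Itpr1, Inpp5a and Atp2a3, which act between the metabotropic receptor and the calcium store, were higher in cerebellum. Plcb4, the phospholipase C of Purkinje neurons (chromosome 2, 135659011 to 136014593), stood at 294 TPM in cerebellum against 31.9 in cortex and 22.5 in hippocampus, a ratio of 9.23-fold (8.13 to 10.5), and it made up 75.1% in cerebellum (73.7 to 76.5), 14.1% in cortex (12.6 to 15.7) and 14.1% in hippocampus (11.9 to 16.4) of the TPM of Plcb1, Plcb3 and Plcb4. Plcb1 lay at 49.7, 182 and 126 TPM in the order cerebellum, cortex, hippocampus. Itpr1, the inositol trisphosphate receptor (chromosome 6, 108213096 to 108551109), stood at 1085 TPM in cerebellum against 198 in cortex and 144 in hippocampus, a ratio of 5.47-fold (5.3 to 5.65). Inpp5a, the phosphatase that ends the inositol trisphosphate signal, stood at 412 TPM in cerebellum against 46.4 in cortex and 32.6 in hippocampus, a ratio of 8.89-fold (7.86 to 10.1); its annotated exons overlap Nkx6-2. Atp2a3, the calcium pump SERCA3, stood at 164 TPM in cerebellum against 5.09 in cortex and 4.18 in hippocampus, a ratio of 32.3-fold (24.4 to 43.5). The more abundant pump gene Atp2a2 lay at 714, 458 and 466 TPM, so Atp2a3 made up 18.7% in cerebellum (17.9 to 19.5), 1.1% in cortex (0.82 to 1.44) and 0.889% in hippocampus (0.565 to 1.33) of the 3 pump genes. Prkcd, protein kinase C delta, stood at 113 TPM in cerebellum against 11.7 in cortex and 24.2 in hippocampus, a ratio of 4.67-fold (3.73 to 5.91). Chn2, the diacylglycerol-binding beta-chimaerin, stood at 819 TPM in cerebellum against 49.3 in cortex and 22.7 in hippocampus, a ratio of 16.6-fold (14.7 to 18.7), while Chn1 lay at 147 TPM in cerebellum against 967 in cortex and 1145 in hippocampus. Chn2 made up 84.8% in cerebellum (83.7 to 85.8), 4.85% in cortex (4.33 to 5.44) and 1.95% in hippocampus (1.57 to 2.36) of the pair. On the other side, Dgkb, diacylglycerol kinase beta, stood at 11.9 TPM in cerebellum against 113 in cortex and 84.2 in hippocampus, a ratio of 7.1-fold (5.96 to 8.51).

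The phosphodiesterase genes differed by member. Pde1c, a calcium/calmodulin-dependent enzyme, stood at 50.7 TPM in cerebellum against 6.08 in cortex and 4.63 in hippocampus, a ratio of 8.34-fold (6.72 to 10.4), and Pde1a of the same family at 2.94 TPM in cerebellum against 153 in cortex and 157 in hippocampus, a ratio of 51.997-fold (31.9 to 91.2) in the other direction. Pde1b lay at 30.2, 384 and 100.3 TPM, highest in the cortex library. Pde5a and Pde9a hydrolyse cyclic GMP, a messenger of Purkinje long-term depression. Pde5a stood at 43.1 TPM in cerebellum against 4.33 in cortex and 4.42 in hippocampus, a ratio of 9.74-fold (7.22 to 13.4), and Pde9a at 99 TPM in cerebellum against 23.98 in cortex and 21.3 in hippocampus, a ratio of 4.13-fold (3.27 to 5.25). The G-substrate gene Ppp1r17, target of cyclic GMP-dependent kinase, was also higher, while the kinase gene Prkg1 lay at 14.3 TPM in cerebellum against 9.26 in cortex and 8.27 in hippocampus and Nos1, the neuronal nitric oxide synthase, at 49.2 TPM in cerebellum against 26.9 in cortex and 29.3 in hippocampus.

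The cyclic AMP list (adenylyl cyclases, protein kinase A and its anchors) had 1 higher and 3 lower of 30, beside 2.25% and 3.01% of all genes. Akap5, the anchoring protein of forebrain spines, stood at 3.46 TPM in cerebellum against 73.2 in cortex and 35.2 in hippocampus, a ratio of 10.2-fold (7.5 to 14.04), Rapgef5 at 9.71 TPM in cerebellum against 54.7 in cortex and 77.5 in hippocampus, a ratio of 5.63-fold (4.48 to 7.15), and Akap13 at 4.07 TPM in cerebellum against 20.6 in cortex and 27.9 in hippocampus, a ratio of 5.06-fold (3.92 to 6.61). Pkib, an inhibitor of protein kinase A, was higher at 144 TPM in cerebellum against 31.6 in cortex and 24.1 in hippocampus, a ratio of 4.56-fold (3.76 to 5.55). Ppp1r1a, the phosphatase inhibitor 1 that protein kinase A activates, stood at 11.8 TPM in cerebellum against 126 in cortex and 117 in hippocampus, a ratio of 9.83-fold (6.75 to 14.8). Among G protein genes, Gng13 stood at 893 TPM in cerebellum against 161 in cortex and 104 in hippocampus, a ratio of 5.53-fold (4.3 to 7.21), with exons that overlap Chtf18, and Gng7, a gamma subunit of striatum and forebrain, at 17.1 TPM in cerebellum against 299 in cortex and 133 in hippocampus, a ratio of 7.81-fold (6.46 to 9.49). Rgs8, a Purkinje regulator of G protein signalling, stood at 711 TPM in cerebellum against 92.5 in cortex and 59.9 in hippocampus, a ratio of 7.68-fold (7.12 to 8.29). Rgs4 and Rgs14 of the same family were lower. Rgs4 stood at 15.2 TPM in cerebellum against 370.01 in cortex and 143 in hippocampus, a ratio of 9.41-fold (7.61 to 11.7), and Rgs14, known from hippocampal area CA2, at 0 TPM in cerebellum against 60.7 in cortex and 86.8 in hippocampus (at least 93.8-fold lower).

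The makeup of calmodulin kinase II differed. Camk2a, the alpha subunit, took 7.82% in cerebellum (7.22 to 8.44), 67.8% in cortex (67.2 to 68.4) and 71.1% in hippocampus (70.5 to 71.8) of the TPM of its 4 genes, and Camk2b, the beta subunit at 442, 555 and 829.8 TPM, 57.95% in cerebellum (56.7 to 59.2), 20.7% in cortex (20.1 to 21.2) and 23.8% in hippocampus (23.2 to 24.4). Camkv, a kinase-like pseudokinase of spines, stood at 4.83 TPM in cerebellum against 455 in cortex and 543 in hippocampus, a ratio of 94.1-fold (67.3 to 136), and Dapk1, death-associated kinase, at 7.8 TPM in cerebellum against 54.6 in cortex and 64.1 in hippocampus, a ratio of 6.999-fold (5.7 to 8.66). Among the calcium buffer and sensor genes, 15 of 23 were counted in neither direction. Calb2, the granule cell buffer calretinin, stood at 568 TPM in cerebellum against 47.4 in cortex and 61.5 in hippocampus, a ratio of 9.23-fold (7.68 to 11.2); Pvalb and Calb1 were higher too. Hpca, the sensor hippocalcin, stood at 163 TPM in cerebellum against 1107 in cortex and 2596 in hippocampus, a ratio of 6.8-fold (6.13 to 7.55), and Hpcal4 at 26.8 TPM in cerebellum against 713 in cortex and 601 in hippocampus, a ratio of 22.4-fold (19.97 to 25.3). Necab2 and Necab1, neuronal calcium-binding proteins, had ratios of 20.2-fold (13.1 to 32.7) and 4.22-fold (3.5 to 5.07) in the same direction.

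**Figure D4:**
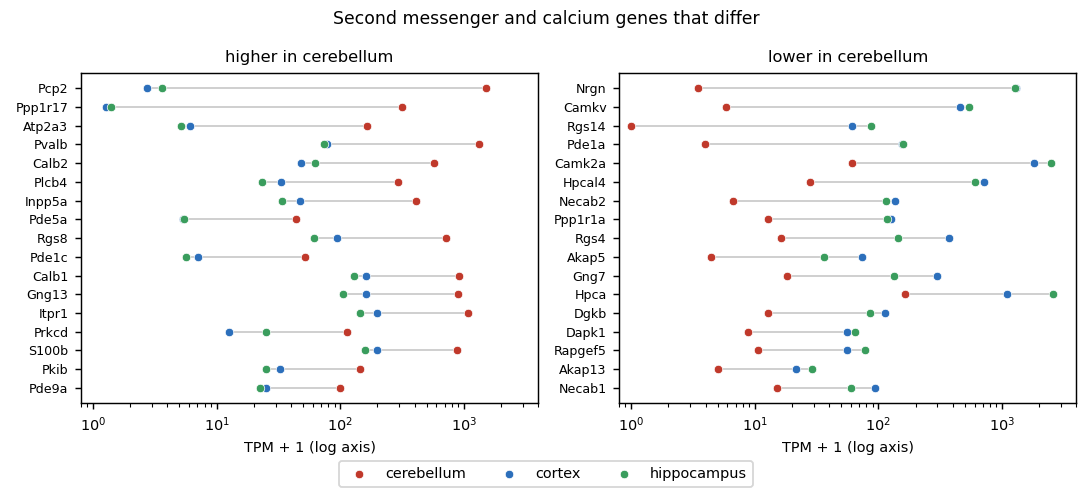
Levels of the second messenger and calcium genes that differed, as TPM + 1 on a log axis, 1 point per library, with the 17 higher in cerebellum on the left and the 17 lower on the right. Camk2a and Hpca keep over 50 TPM in cerebellum although they were lower, and Rgs14 stands at 0.

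Glial genes differed by type. Oligodendrocyte genes lay near the forebrain libraries, with a median log2 difference of 0.20 over 14 genes, beside 0.11 over all genes. Of the 14, 0 were counted in either direction, which is near the 5.26% of all genes. Mbp, myelin basic protein, lay at 3545 TPM in cerebellum against 2543 in cortex and 3391 in hippocampus and Mag, myelin-associated glycoprotein, at 281 TPM in cerebellum against 199 in cortex and 232 in hippocampus. Oligodendrocyte precursor genes had a median of -0.64 over 7, with Pdgfra, their growth factor receptor, at 8.47 TPM in cerebellum against 33.96 in cortex and 27.8 in hippocampus. Endothelial and mural genes had a median of 0.07 over 10 and 0 counted, again near the 5.26% of all genes. The tight junction gene Cldn5 lay at 27.8 TPM in cerebellum against 31.5 in cortex and 30.1 in hippocampus.

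Microglial genes all lay below both forebrain libraries (14 of 14), beside 34.7% of all genes. Their median was -1.76, and they summed to 252 TPM in cerebellum against 843 in cortex and 798 in hippocampus. P2ry12, the purinergic receptor of resting microglia (chromosome 3, 59216272 to 59262871), stood at 8.92 TPM in cerebellum against 51.8 in cortex and 57.4 in hippocampus, a ratio of 5.8-fold (4.17 to 8.24), with exons that overlap Med12l; it is also among the receptor genes counted above. Siglech stood at 4.31 TPM in cerebellum against 22.3 in cortex and 23.4 in hippocampus, a ratio of 5.17-fold (3.12 to 9.01). Those were the 2 of 14 that met the 4-fold limit, beside 3.01% of all genes that were lower. Trem2, a lipid receptor of microglia, lay at 6.35, 26.8 and 29.4 TPM in the order cerebellum, cortex, hippocampus, Cx3cr1, the fractalkine receptor, at 9.95, 44.3 and 33.6, Csf1r, the survival receptor, at 18.2, 70.2 and 64.7, and C1qa, a complement component, at 27.8, 91.1 and 91.8. The ratios of these lay between 3 and 5. Aif1, with 6, 17 and 11 counts, had an interval that included 1.

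Astrocyte genes differed among themselves. Over 14 genes the median was 0.40, and 1 met the limit, beside 5.26% of all genes. Of the 14, 8 lay above both forebrain libraries and 4 below both, near the 49.5% and 34.7% of all genes. S100b, a calcium-binding protein of astrocytes, stood at 883 TPM in cerebellum against 196 in cortex and 157 in hippocampus, a ratio of 4.51-fold (4.12 to 4.94). Aldoc, the aldolase that also marks zebrin stripes of Purkinje neurons, lay at 3259 TPM in cerebellum against 1037 in cortex and 1073 in hippocampus and Aqp4, the water channel, at 239.5 TPM in cerebellum against 88.6 in cortex and 92.8 in hippocampus. Gfap lay between the forebrain libraries at 204 TPM in cerebellum against 169 in cortex and 408 in hippocampus, as did Gja1, connexin 43, at 171 TPM in cerebellum against 161 in cortex and 182 in hippocampus. Glul, glutamine synthetase, lay below both at 843 TPM in cerebellum against 1234 in cortex and 1339 in hippocampus. The glutamate transporters differed: Slc1a3 (GLAST) lay at 960.1 TPM in cerebellum against 409 in cortex and 449.9 in hippocampus and Slc1a2 (GLT-1) at 188 TPM in cerebellum against 637 in cortex and 691 in hippocampus. Slc1a3 made up 67.2% in cerebellum (66.5 to 67.9), 35.4% in cortex (34.6 to 36.2) and 35.3% in hippocampus (34.3 to 36.2) of the TPM of 4 high-affinity transporter genes, and Slc1a6 (EAAT4), a Purkinje gene at 254 TPM in cerebellum against 11.4 in cortex and 10.9 in hippocampus, 17.8% in cerebellum (16.9 to 18.7), 0.984% in cortex (0.732 to 1.29) and 0.853% in hippocampus (0.589 to 1.19).

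Bergmann glia genes lay above both forebrain libraries at 12 of 14, beside 49.5% of all genes, with a median of 1.70. Of the 14, 5 met the limit, all higher, beside 2.25% of all genes. Gdf10, a growth factor of the transforming growth factor family (chromosome 14, 33923587 to 33937983), stood at 181 TPM in cerebellum against 8.41 in cortex and 14.6 in hippocampus, a ratio of 12.4-fold (9.43 to 16.6). A2m, the protease inhibitor alpha-2-macroglobulin, stood at 61.5 TPM in cerebellum against 3.4 in cortex and 1.96 in hippocampus, a ratio of 18.1-fold (12.9 to 26.2), and Timp4, a metalloproteinase inhibitor, at 267 TPM in cerebellum against 50.7 in cortex and 49.5 in hippocampus, a ratio of 5.26-fold (4.4 to 6.32), with exons that overlap Syn2. Vim, the intermediate filament vimentin, stood at 280.1 TPM in cerebellum against 58.8 in cortex and 58.2 in hippocampus, a ratio of 4.77-fold (4.14 to 5.5). Gria4, given above, is the fifth. Hopx, at 332, 59.6 and 141 TPM, and Sept4, at 944, 216 and 272, lay above without reaching 4-fold. Slc1a3 stands in this list and in the astrocyte list.

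**Figure D5:**
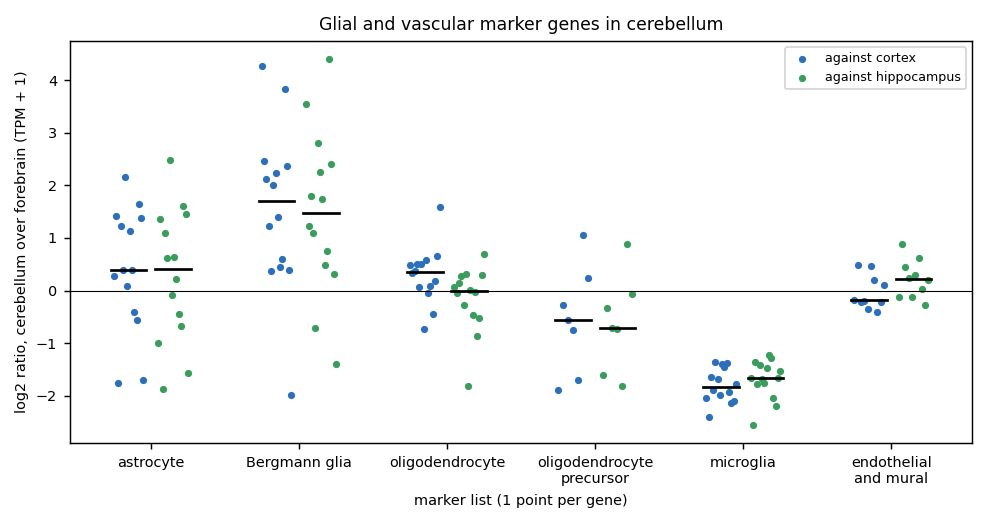
Each point is 1 marker gene with 10 TPM or more in at least 1 of the 3 libraries, placed by its log2 ratio of TPM + 1 in cerebellum over cortex (blue) or over hippocampus (green), and the bars are medians. All 14 microglia points lie below 0 against both libraries, 12 of 14 Bergmann glia genes lie above 0 against both, and oligodendrocyte genes lie around 0.

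The neuron and glia libraries showed which of these genes were found in them. Of the 264 genes higher in cerebellum, 42 stood at 10 TPM or more in the neuron library and 82 in glia. Of the 353 lower genes 217 did in neuron and 101 in glia, and over the 11728 genes the numbers were 7137 and 9077. In neuron, the share of the lower genes was thus near that of all genes, and that of the higher genes was smaller. In glia, both shares were smaller than that of all genes. Of the 264, 61 were under 1 TPM in all 5 other libraries of the series, and of the 353, 17, beside 209 of the 11728. Lhx2 stood at 44.9 TPM in the neuron library and 128 in glia and Nrgn at 1525 TPM in the neuron library and 0.84 in glia. En2 stood at 0.1 TPM in the neuron library and 0.11 in glia, Zic1 at 0.69 TPM in the neuron library and 5.15 in glia, Grm4 at 11.2 TPM in the neuron library and 0.24 in glia and Gabra6 at 0.57 TPM in the neuron library and 0 in glia. The sources used here do not name the brain region from which neurons and glia were taken. The glia library held little of the microglial gene P2ry12, at 0.17 TPM in the neuron library and 5.92 in glia, and of the Bergmann genes Gdf10, at 2.21 TPM in the neuron library and 1.07 in glia, while Vim stood at 105 TPM in the neuron library and 10414 in glia.

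The counts depended on the setting for low genes and for genes near 4-fold. With 5 TPM added in place of 1, the genes that no longer met the limit were 18 of the 47 transcription factor genes, 7 of the 26 channel genes, 14 of the 37 receptor and adhesion genes, 3 of the 34 second messenger genes and 9 of the 54 marker genes. Among transcription factors they included Bcl11a, Mef2c, Nr2e1, Meis1, Otx2, Barhl1, Lhx6, Irx3, Atoh7, Egr2, Emx2, Hes5, Foxo6, Egr4 and Pou3f1, and among channels Cacnb1, Trpc4, Clcn1, Kcna4, Kcnk3 and Kcnh7. Among receptor and adhesion genes they were Crhr1, Cbln2, Gria4, Chrna4, Npy2r, Epha8, Cckbr, Gabra3, Adrb1, Sstr1, Sstr4, Chrm4, Sstr2 and Gabrg3, and among second messenger genes Necab1, Pde9a and Akap13. With TMM factors, Gria4, Barhl1, Irx3 and Pde9a no longer met the limit. On counts without a length term, Pkib, Cbln2, Chrna4, Emx1, Sstr1, Atoh7, Sstr4, Chrm4, Pde9a, Hes5, Siglech and Egr4 no longer did, and after thinning to equal depth Otx2, Chrna4, Siglech and Pou3f1.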

How the data were processed

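RNA was measured in 8 mouse libraries of 1 group each, of which cerebellum, cortex and hippocampus were compared. Per the labels, total RNA was extracted with Trizol and 1 ug was used with an Illumina TruSeq kit for RNA. Bowtie, RSEM (both without versions) and the build mm10 are named in the submitters' processing notes. For annotation release and strandedness the entry is: not given in the sources used here. RSEM expected counts per gene were deposited by the authors, per the file headers, as were TPM values and effective lengths in bases. The effective length, TPM and expected count agreed: 100% of TPM values of 10 or more were recomputed from the counts to within 1%, and 87.5% of counts were whole. The tables held 29713 genes, and 29202 had a symbol. Symbols and coordinates came from GENCODE M21, and genes absent there took a symbol, without coordinates, from a separate set of gene names. Reads were not mapped again.

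The limits were 10 TPM, 4-fold and 1 TPM added. A library at 0 counts was set to 3 counts, giving a bound. Nothing was tested across libraries. The 49 lists hold 1182 genes. The members, lists and limits were chosen with earlier results of these data known. Genes named in the text are, for each direction, the 15 of largest log2 ratio (leaving out predicted models, ribosomal, small RNA and antisense genes) and any list member; families were chosen after values were seen. Some genes that met this rule are not reported here. Promoters come from RefSeq (GRCm38), matched by symbol. In all, 10 alternatives were run: 0.1 or 5 TPM added, a floor of 1 TPM, 2-fold, TMM factors, CPM without a length term, no haemoglobin genes, each forebrain library left out, and counts thinned to 3686751 per library with seed 7. Tools were Python 3.11.15 (scipy 1.17.1, numpy 2.4.6, matplotlib 3.10.9, pandas 2.3.3) and edgeR 4.0.16 under R 4.3.3, used for the TMM factors.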

Additional observations from a re-analysis of the deposited data

How the results depend on the processing

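Higher and lower counts of 264 and 353 became 152 and 214 with 5 TPM added and 832 and 828 at 2-fold. Leaving out hippocampus gave 341 and 564, and leaving out cortex 376 and 497. The other 6 settings gave 236 to 361 higher genes and 353 to 463 lower genes. No paired analysis was possible because each group holds 1 library. Of 175 named genes that differed, 45 no longer met the limit with 5 TPM added, 13 on CPM without a length term, 7 after thinning and 6 with TMM factors. In any setting 0 changed sign. A sign could not change with another amount added, floor or fold, or with a forebrain library left out. TMM factors moved the median log2 difference of all genes by -0.09. With these factors and no size limit, fewer genes lay above both forebrain libraries and more lay below both. The shares of 49.5% and 34.7% that the lists are set beside thus depend on the scaling. How the lists compare with all genes in this respect under TMM factors was not tested. With 3 counts worth 0.625 to 0.943 TPM on 2000 bases, ratios to genes near 0 are set by a few counts.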

Other observations

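Slc17a7, the vesicular glutamate transporter VGLUT1, made up 97.6% in cerebellum (97.1 to 98.03), 97.1% in cortex (96.8 to 97.5) and 98.02% in hippocampus (97.7 to 98.4) of the TPM of the 3 vesicular glutamate transporter genes, although its level lay at 409 TPM in cerebellum against 883 in cortex and 961 in hippocampus. The pacemaker channel gene Hcn2 lay at 137 TPM in cerebellum against 116 in cortex and 99.2 in hippocampus. Haemoglobin genes lay above both forebrain libraries, with Hba-a1 at 382 TPM in cerebellum against 249 in cortex and 226 in hippocampus and Hbb-bs at 780.1 TPM in cerebellum against 445 in cortex and 374 in hippocampus, and the part of residual blood in other values was not tested. Of the genes that were higher in cerebellum 239 (90.5%) were protein-coding and of those lower 331 (93.8%), against 96.1% of all 11728. The 264 higher genes held 3.46% of cerebellum TPM, 0.364% of that in cortex and 0.328% of that in hippocampus, and the 353 lower genes 0.357%, 4.11% and 4.28%.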
